A study of Homo sapiens with 20 samples.

Results

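Regions marked by H3K4me3 were set against regions marked by H3K27ac in LNCaP cells, a line derived from human prostate cancer, after transfection with a pool of non-targeting siRNA. All cells had received 20 nM of this siRNA for 144 h, with the transfection repeated midway, and none of the 4 libraries compared here came from untransfected cells. Chromatin was fixed, fragmented and immunoprecipitated with an antibody against 1 of the marks, and each mark was measured in 2 libraries, which are 4 of the 20 libraries of the series. The other libraries hold CTCF in the same cells and in IMR90 fibroblasts, and all 3 targets after CTCF siRNA. For each mark the lists of both libraries were joined on chromosomes 1 to 22 and X, and joined regions seen in both libraries were kept, which gave 31150 H3K4me3 regions and 54904 H3K27ac regions.

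H3K4me3 is a trimethylated lysine of histone H3 that SET1 and MLL methyltransferases deposit, mostly at promoters rich in unmethylated CpG dinucleotides. H3K27ac is an acetylated lysine of the same histone tail that the acetyltransferases p300 and CBP deposit at active promoters and enhancers. Promoters can carry H3K4me3 without H3K27ac, for example where Polycomb methylates the same lysine 27, and enhancers typically carry H3K27ac with little H3K4me3. In prostate luminal cells many enhancers are bound by FOXA1, a forkhead factor.

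The classes differed in the DNA they lay on, and 6 stretches of the hg19 reference are shown to make the difference visible. They were picked after the values were seen, FOXA1, KLK3 and KLK2 by name and the others by simple rules. All lie outside annotated exons. They are written 5′ to 3′ on the strand of the gene, or on the plus strand where there is no gene. CpG dinucleotides are in capitals in the first 5. The first is the stretch just upstream of FOXA1 at chr14:38065265-38065564, which every library of both marks covered in full. The second lies upstream of NKX6-1, a homeobox factor of pancreatic and neural development, at chr4:85420446-85420745, and was covered in full by both H3K4me3 libraries and by neither H3K27ac library. The third lies upstream of KLK3, which encodes prostate-specific antigen, at chr19:51357871-51358170. H3K4me3 covered 220 and 300 of its bases in replicates 1 and 2, and both H3K27ac libraries covered it in full. The fourth lies upstream of its neighbour KLK2 at chr19:51364524-51364823 and was covered in full by both H3K27ac libraries and by neither H3K4me3 library. The fifth is the centre of the widest H3K27ac region without H3K4me3, at chr21:17757076-17757375.
FOXA1: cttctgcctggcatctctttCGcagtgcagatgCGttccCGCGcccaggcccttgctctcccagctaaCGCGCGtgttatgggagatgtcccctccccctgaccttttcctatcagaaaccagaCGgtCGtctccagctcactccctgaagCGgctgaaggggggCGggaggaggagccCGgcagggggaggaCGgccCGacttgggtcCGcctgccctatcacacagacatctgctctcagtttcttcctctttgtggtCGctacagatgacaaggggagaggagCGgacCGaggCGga
NKX6-1: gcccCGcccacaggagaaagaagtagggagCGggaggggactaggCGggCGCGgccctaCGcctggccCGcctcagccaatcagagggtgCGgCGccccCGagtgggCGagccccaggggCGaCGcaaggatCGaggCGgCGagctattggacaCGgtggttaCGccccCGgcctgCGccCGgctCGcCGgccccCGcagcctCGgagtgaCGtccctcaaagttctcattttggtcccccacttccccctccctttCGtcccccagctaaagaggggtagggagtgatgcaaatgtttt
KLK3: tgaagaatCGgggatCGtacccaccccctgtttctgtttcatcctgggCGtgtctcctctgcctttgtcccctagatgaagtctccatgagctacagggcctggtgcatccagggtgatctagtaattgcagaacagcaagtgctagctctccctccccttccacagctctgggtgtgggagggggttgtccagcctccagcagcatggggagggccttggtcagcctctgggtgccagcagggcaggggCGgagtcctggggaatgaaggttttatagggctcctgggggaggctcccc
KLK2: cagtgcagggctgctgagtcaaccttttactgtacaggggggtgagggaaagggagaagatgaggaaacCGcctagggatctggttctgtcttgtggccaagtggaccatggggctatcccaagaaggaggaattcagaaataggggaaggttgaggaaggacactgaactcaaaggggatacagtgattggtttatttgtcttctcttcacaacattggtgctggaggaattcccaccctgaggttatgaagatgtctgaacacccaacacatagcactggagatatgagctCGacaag
Chromosome 21: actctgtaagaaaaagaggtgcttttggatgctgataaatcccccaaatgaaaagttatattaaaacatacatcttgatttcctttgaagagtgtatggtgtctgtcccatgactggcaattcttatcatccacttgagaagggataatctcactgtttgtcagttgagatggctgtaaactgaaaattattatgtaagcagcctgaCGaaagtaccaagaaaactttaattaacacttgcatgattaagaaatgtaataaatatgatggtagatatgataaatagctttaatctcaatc
The FOXA1 stretch holds 19 CpG in its 300 bases and the NKX6-1 stretch 27. KLK3, which carried both marks as FOXA1 did, has 4, KLK2 has 2 and the chromosome 21 stretch has 1. The sixth stretch comes from beside the centromere gap of chromosome 7, at chr7:61744726-61745025, inside an H3K4me3 region of 11550 bp. Its capitals mark the 5-base unit GGAAT, read on either strand, which occurs 10 times.
Chromosome 7: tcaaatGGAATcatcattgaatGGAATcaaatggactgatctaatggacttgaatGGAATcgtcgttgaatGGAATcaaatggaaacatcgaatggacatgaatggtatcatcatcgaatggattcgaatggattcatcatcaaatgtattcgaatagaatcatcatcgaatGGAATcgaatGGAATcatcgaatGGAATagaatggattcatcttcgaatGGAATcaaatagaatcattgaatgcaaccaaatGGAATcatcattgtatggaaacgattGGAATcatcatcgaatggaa
Both H3K4me3 libraries covered it in full, H3K27ac replicate 2 covered it and H3K27ac replicate 1 did not.

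The 4 libraries differed in how much they marked. H3K4me3 replicate 1 had 36492 regions over 63.8 Mb and replicate 2 had 48462 regions over 82.8 Mb. H3K27ac replicate 1 had 86949 regions over 162 Mb and replicate 2 had 69949 regions over 122 Mb. Both H3K27ac libraries thus covered more than either H3K4me3 library, with means of 142 ± 28.0 and 73.3 ± 13.4 Mb (SD, n = 2) and a difference of 68.6 Mb. In an exact two-sided permutation test over the libraries p was 0.333, which is the smallest value that 2 against 2 libraries allow. The median region was 1300 and 1250 bp wide for H3K4me3 and 1350 and 1300 bp for H3K27ac, values that overlap (exact permutation p = 0.667). The marks parted in the wide tail. Regions over 10 kb numbered 37 and 44 in the H3K4me3 libraries and 591 and 336 in the H3K27ac libraries. In the longer list of each mark 64.9% of H3K4me3 regions and 64.6% of H3K27ac regions overlapped a region of the other replicate, against 87.9% and 85.2% in the shorter lists. The lists hold positions and no read counts, so the depth behind a region is unknown and a region missing from a list need not lack the mark. By the sequencing depths that the paper states, the longer list of each mark came from the deeper library. Both H3K27ac libraries were shallower than either H3K4me3 library, and the effect of depth was not tested.

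Both marks together covered 1.66% of the genome (50.5 Mb), H3K4me3 alone 0.636% (19.3 Mb) and H3K27ac alone 2.93% (88.8 Mb). Of all marked bases 31.8% carried both marks, 12.2% H3K4me3 only and 56.0% H3K27ac only. The marks were nested unequally. H3K27ac lay on 72.4% of H3K4me3 bases, whereas H3K4me3 lay on 36.3% of H3K27ac bases. Among the 4 pairings of 1 library of each mark, the share of the genome with both marks ranged from 1.41% to 1.98%, with H3K4me3 only from 0.560% to 0.938%, and with H3K27ac only from 2.23% to 3.78%. The order of the 3 classes was the same in every pairing.

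Counted as regions, 23766 of 31150 H3K4me3 regions (76.3%, Wilson 95% interval 75.8 to 76.8) overlapped an H3K27ac region by at least 1 bp. In the other direction 23377 of 54904 H3K27ac regions did (42.6%, interval 42.2 to 42.99). These intervals cover counting error only and are far narrower than the range over library pairings, which ran from 70.5% to 77.4% and from 31.9% to 48.5%. The lists also differ in length, and with every list shortened to the 36492 regions of the shortest the shares were 64.1% and 57.8%.

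Regions of 1 mark mostly lay well away from the kept regions of the other, which both of its libraries had called. The nearest H3K27ac region was a median of 23550 bp from an H3K4me3 region without overlap, and 5.19% of these gaps were within 1 kb. From H3K27ac regions without overlap the nearest H3K4me3 region was a median of 18950 bp away, and 3.34% were within 1 kb. Regions called in a single library did not count here. At least 1 library of the other mark had called a region that overlapped 29.6% of these H3K4me3 regions and 29.9% of these H3K27ac regions.

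**Figure D1:**
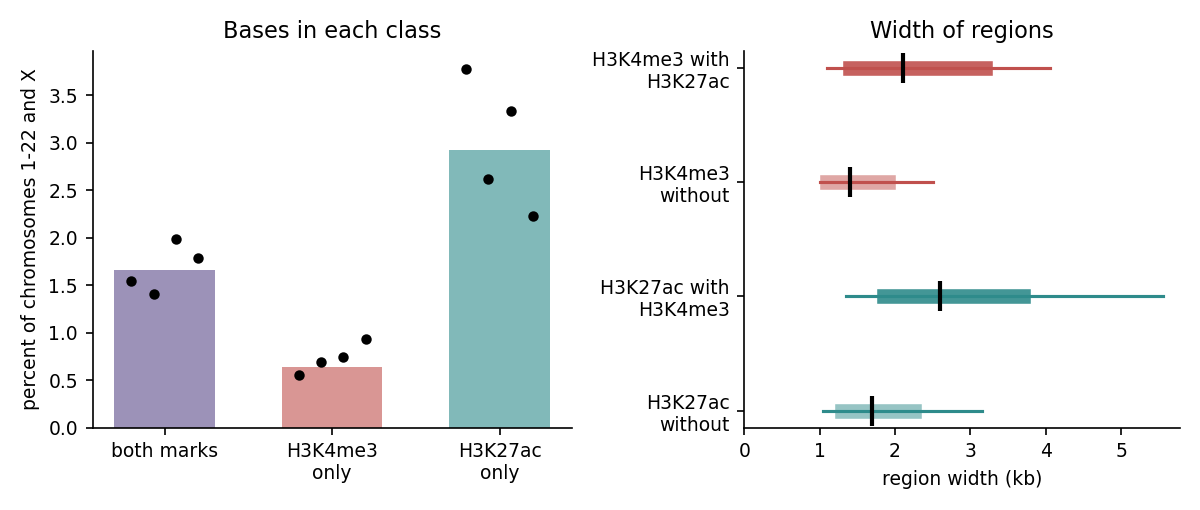
Left, percent of chromosomes 1 to 22 and X in each class (bars: regions found in both libraries; points: the 4 pairings of 1 library of each mark). Right, widths of regions with and without the other mark in kb (tick: median; thick bar: middle 50%; thin line: 10th to 90th percentile). H3K27ac only is the largest class in every pairing, and regions with the other mark are wider, with medians of 2100 against 1400 bp for H3K4me3 and 2600 against 1700 bp for H3K27ac.

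Regions that carried both marks were wider than regions that carried 1. H3K4me3 regions had a median width of 2100 bp with H3K27ac and 1400 bp without. H3K27ac regions had a median of 2600 bp with H3K4me3 and 1700 bp without. None of the 7384 H3K4me3 regions without H3K27ac exceeded 10 kb, the widest being 9700 bp, while 57 with H3K27ac did. Of H3K27ac regions over 10 kb, 564 carried H3K4me3 and 99 did not. A wide region has more room to overlap another, so these widths describe the classes and were not tested.

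The share of H3K4me3 regions with H3K27ac rose with width from 55.6% in the narrowest decile to 98.4% in the widest. For H3K27ac the share with H3K4me3 rose from 17.3% to 77.5%. Ranked by the score that the lists give, in which low values went with gene starts, the share of H3K27ac regions with H3K4me3 fell at every step, from 86.9% in the first decile to 12.3% in the last. H3K4me3 did not fall steadily. The first decile had H3K27ac at 99.6% of regions, the fourth at 56.8%, the fifth at 76.3% and the last at 64.3%. The share near gene starts was 88.4% in the first decile, 47.4% in the fourth, 15.8% in the fifth and 3.11% in the last.

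Where the marks met, they mostly met as single pairs. Overlapping regions of both marks formed 22576 shared clusters, of which 20960 (92.8%) held exactly 1 region of each mark. Another 862 clusters held several H3K4me3 regions within 1 H3K27ac region, and 640 held the reverse. In the single pairs H3K4me3 had a median width of 2050 bp and H3K27ac of 2550 bp. The median ratio of H3K27ac to H3K4me3 width was 1.21 and its middle 50% ran from 0.864 to 1.79. H3K27ac was the wider mark in 62.6% of pairs, and H3K4me3 lay inside H3K27ac in 52.9%, counting shared ends. In the 4 pairings of single libraries the median ratio ranged from 1.20 to 1.41. With 1 library set against the merged regions of the other mark it ranged from 1, without H3K27ac replicate 1, to 1.5, without H3K4me3 replicate 2.

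The ratio turned over with the distance to a gene start. In the 7346 pairs within 1 kb of the start of a protein-coding gene, H3K4me3 was the wider mark, with medians of 3250 bp against 2750 bp for H3K27ac and a ratio of 0.860. H3K27ac was wider in 29.5% of these pairs. In the 13614 pairs farther away H3K4me3 had a median of 1600 bp and H3K27ac of 2500 bp, the ratio was 1.52 and H3K27ac was wider in 80.4%. The same contrast held in each of the 4 pairings of single libraries, where the ratio ranged from 0.733 to 0.882 near gene starts and from 1.42 to 1.88 farther away. The groups did not overlap, and leaving out any library also left the ratio below 1 near starts and above 1 elsewhere. The ratio also changed with H3K4me3 width, which itself differed between the groups. Its median was 2.16 at H3K4me3 widths up to 1000 bp and 1.59 from there to 2000 bp. It was 0.896 from there to 4000 bp and 1.01 above 4000 bp. Distance and width were not tested apart.

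**Figure D2:**
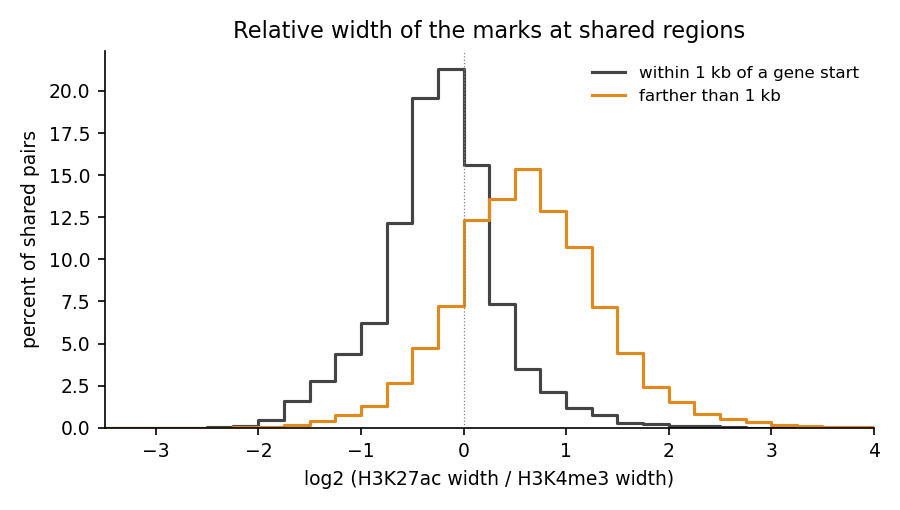
Distribution of the log2 ratio of H3K27ac to H3K4me3 width over 20960 shared pairs, as percent of pairs per bin, for pairs within 1 kb of a protein-coding gene start (dark line, 7346 pairs) and farther away (orange line, 13614 pairs). The dotted line marks equal width. Most pairs near starts lie to its left, with a median ratio of 0.860, and most others lie to its right, with a median of 1.52.

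At gene starts the marks also differed in direction. For 4886 genes with both marks over the start and no other protein-coding gene start within 10 kb, H3K4me3 reached a median of 1201 bp upstream and 2017 bp downstream into the gene. H3K27ac reached 1138 bp upstream and 1551 bp downstream. H3K4me3 extended farther than H3K27ac at 55.1% of these genes on the upstream side and at 72.2% on the downstream side. The marks ended at the same base upstream at 5.06% of genes and downstream at 2.25%. By single libraries the upstream share ranged from 48.6% to 68.6% and the downstream share from 70.9% to 84.9%. The upstream medians of the marks were closest in the pairing of both first replicates, at 1105 bp for H3K4me3 and 1101 bp for H3K27ac.

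Over all 20098 protein-coding gene starts, H3K4me3 coverage peaked at 57.5% and 59.1% of genes in its replicates, 500 and 400 bp downstream of the start. H3K27ac peaked at 46.5% and 45.2%, 200 bp upstream of the start and at the start itself. The order reversed away from the start. At 10 kb upstream the H3K4me3 libraries covered 4.21% and 5.07% of genes and the H3K27ac libraries 8.61% and 7.30%, and at 10 kb downstream the values were 4.73% and 5.71% against 11.2% and 9.28%.

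**Figure D3:**
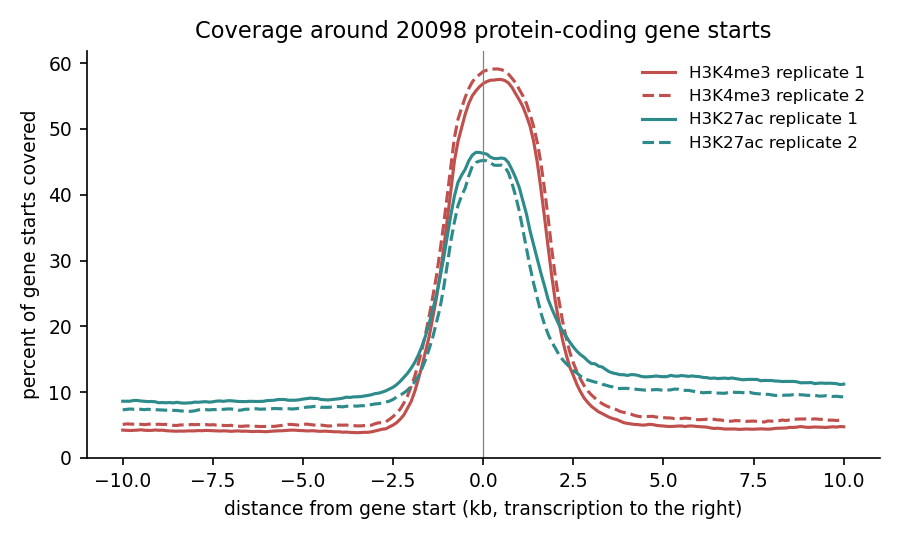
Percent of 20098 protein-coding gene starts covered by a region, by distance from the start in kb with transcription to the right, for each of the 4 libraries. Both H3K4me3 libraries (red) lie above both H3K27ac libraries (teal) at the start. They lie below them from 2000 bp upstream and 2700 bp downstream outwards, and H3K4me3 is displaced towards the gene body.

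The classes sat in different places. Of H3K4me3 regions with H3K27ac 34.8% lay within 1 kb of a protein-coding gene start, as did 31.9% of those without H3K27ac. Of H3K27ac regions with H3K4me3 36.6% did, against 495 of 31527 regions with H3K27ac alone (1.57%, Wilson 95% interval 1.44 to 1.71). The regions with H3K27ac alone lay in gene bodies in 59.1% of cases and between genes in 39.3%. By library, 29.6% and 22.9% of H3K4me3 regions and 11.4% and 13.9% of H3K27ac regions were near a start. The groups did not overlap (exact permutation p = 0.333, the smallest possible).

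Seen from the genes, 49.0% of the 20098 protein-coding gene starts had both marks within 1 kb, 12.2% had H3K4me3 only and 2.68% had H3K27ac only. H3K4me3 in total marked 61.3% of starts and H3K27ac 51.7%. Levels below are base pairs covered within 5 kb on either side of the start, a window of 10001 bp, given for replicate 1 and then replicate 2 of each mark. Over all genes the medians were 2350 and 2550 bp for H3K4me3 and 1650 and 1400 bp for H3K27ac.

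Genes of prostate luminal cells were covered widely by H3K27ac. Of 26 such genes 19 had both marks at the start (73.1%, against 49.0% of all genes), 1 had H3K4me3 only, 4 had H3K27ac only (15.4%, against 2.68%) and 2 had neither. The list medians were 3414 and 3750 bp for H3K4me3 and 6050 and 6126 bp for H3K27ac. FOXA1, the pioneer factor of luminal cells, was covered over 9801 and 9637 bp by H3K4me3 and over 10001 bp, the whole window, by H3K27ac in both replicates. HOXB13, a prostate homeobox factor, had 8201 and 8251 bp of H3K4me3 and 9201 and 9001 bp of H3K27ac. At both regulators the 2 marks filled most of the window.

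Other luminal genes differed in which mark was wider. KLK3 had 5821 and 6871 bp of H3K4me3 and 10001 and 9851 bp of H3K27ac. AMACR, a racemase overexpressed in prostate cancer, had 3300 and 3400 bp of H3K4me3 and 10001 and 6701 bp of H3K27ac. FKBP5, an androgen-induced chaperone partner, had 4650 and 5950 bp of H3K4me3 and 9601 and 9901 bp of H3K27ac. In all 3 genes both H3K27ac values lay above both H3K4me3 values. PMEPA1, an androgen-induced membrane protein, went the other way, with 4700 and 4800 bp of H3K4me3 and 3600 and 3450 bp of H3K27ac. KRT8 and KRT18, the luminal keratins, start about 1 kb apart and share 1 pair of regions, with 3700 and 3750 bp of H3K4me3 and 6050 and 6150 bp of H3K27ac.

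The 4 starts with H3K27ac only were KLK2, KLK4, STEAP2 and TMPRSS2. TMPRSS2, an androgen-regulated serine protease, had 1443 and 2951 bp of H3K4me3 in the window and 7801 bp of H3K27ac in both replicates, but H3K4me3 did not come within 1 kb of the start in the gene record. STEAP2, a metalloreductase, had no H3K4me3 in either replicate and 3501 and 2504 bp of H3K27ac. All 4 had both marks when any annotated transcript start was allowed, and 25 of the 26 genes then did, against 56.3% of all genes. STEAP4, a related metalloreductase, had H3K4me3 only, with 1500 and 1600 bp, and no H3K27ac in the window.

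Housekeeping genes had both marks more evenly. Of 25 genes 21 had both marks (84.0%, against 49.0% of all genes), 2 had H3K4me3 only (8%, against 12.2%) and none had H3K27ac only (against 2.68%). The medians were 4050 and 3950 bp for H3K4me3 and 4376 and 3635 bp for H3K27ac. GAPDH, a glycolytic enzyme, had 5500 bp of H3K4me3 in both replicates and 9428 and 9528 bp of H3K27ac. HPRT1, a purine salvage enzyme, was one of the pair with H3K4me3 only and had 2300 and 2600 bp of it, with 0 and 600 bp of H3K27ac. ACTB and RAB7A had neither mark at the start in the gene record and both marks at another transcript start.

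Many developmental regulators carried H3K4me3 alone. Of 60 developmental transcription factors 19 had H3K4me3 only (31.7%, against 12.2% of all genes), 13 had both marks (21.7%, against 49.0%), 1 had H3K27ac only and 27 had neither. ISL1, a LIM homeobox factor, had 4719 and 5419 bp of H3K4me3 and no H3K27ac in either replicate. NKX2-1, a factor of lung and thyroid, had 2900 bp of H3K4me3 in both replicates and no H3K27ac. LHX1, NKX2-2, NKX6-1 and OLIG2, which act in kidney, neural or pancreatic development, likewise had H3K4me3 in both replicates and H3K27ac in neither. Among the 13 with both marks, TBX3 had 6721 bp of H3K4me3 and 6921 bp of H3K27ac in each replicate, and PITX1 had 4550 and 4700 bp against 6100 and 7398 bp. Allowing any transcript start, 26 of the 60 had H3K4me3 only and 14 had both, against 11.2% and 56.3% of all genes.

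Of 39 HOX genes 11 had H3K4me3 only (28.2%, against 12.2% of all genes), 8 had both marks (20.5%, against 49.0%), 1 had H3K27ac only and 19 had neither. By any transcript start 13 had both marks, 11 H3K4me3 only, 1 H3K27ac only and 14 neither. Of all genes 56.3% then had both marks and 11.2% H3K4me3 only. HOXD13 and HOXD1, at the ends of the HOXD cluster, had 3599 and 4549 bp and 1350 and 1400 bp of H3K4me3. H3K27ac there was 0 and 550 bp at HOXD13 and absent at HOXD1. Within the HOXB genes HOXB13 had the most of both marks, HOXB2, HOXB3, HOXB6 and HOXB9 had both marks at lower levels, and HOXB1, HOXB4 and HOXB7 had 0 bp of both in the whole window. Neighbouring HOX genes share windows, so these counts are not independent of each other.

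**Figure D4:**
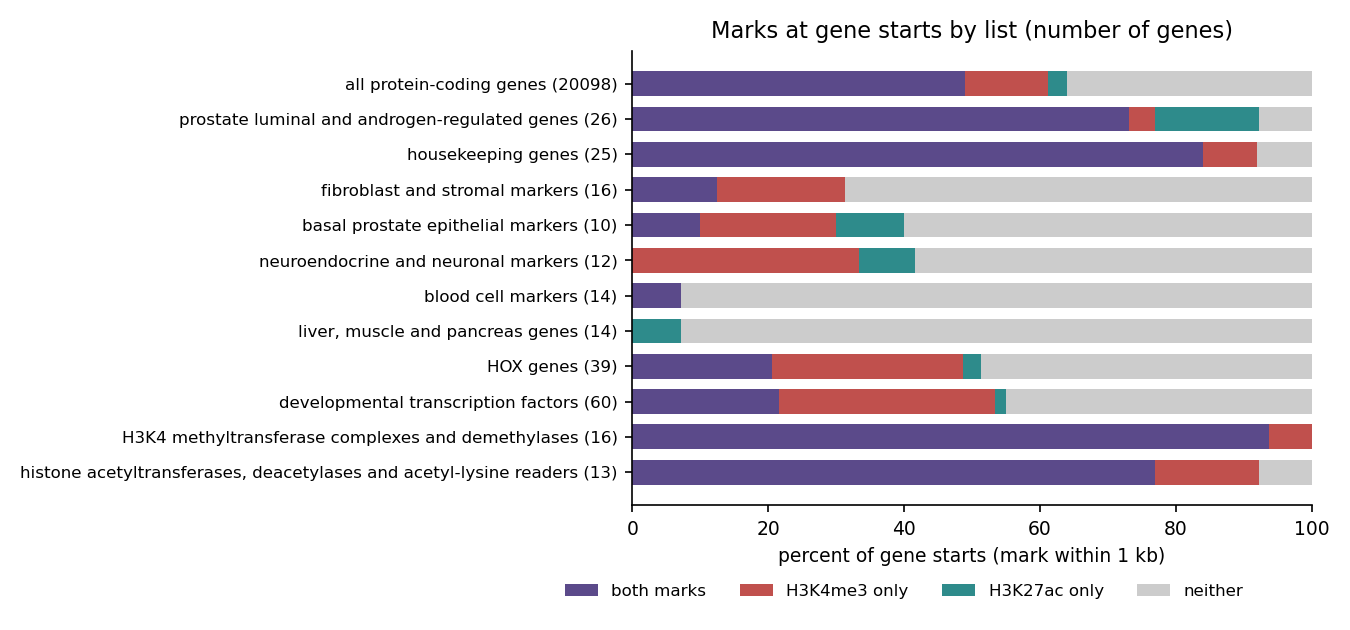
Percent of gene starts in each list with both marks, H3K4me3 only, H3K27ac only or neither within 1 kb, with the number of genes in brackets; the top bar is all protein-coding genes. H3K4me3 only is 31.7% of developmental factors and 28.2% of HOX genes against 12.2% of all genes. H3K27ac only is 15.4% of luminal genes against 2.68%. When any transcript start is allowed, no luminal gene has H3K27ac only, against 3.28% of all genes.

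Markers of other cell types were unmarked more often than genes in general, of which 36.1% had neither mark at the start. Among blood cell markers 13 of 14 had neither (92.9%), the exception being CD8A, and PTPRC and SPI1 had 0 bp of both marks in the whole window. Of 14 liver, muscle and pancreas genes 13 had neither mark (92.9%) and GCG had H3K27ac only. Of 10 basal epithelial markers 6 had neither (60%), TP63 had 0 bp of both marks, and ITGA6 had both. Of 16 fibroblast markers 11 had neither (68.8%), with COL1A2, COL3A1 and LUM at 0 bp throughout, while COL1A1 and ACTA2 had both. Of 12 neuroendocrine and neuronal markers 7 had neither (58.3%) and 4 had H3K4me3 only (33.3%, against 12.2% of all genes), among them ENO2, NCAM1 and SYT1, and none had both. SYT1, a sensor of calcium in synaptic vesicle release, had 1800 and 1700 bp of H3K4me3 and no H3K27ac. Allowing any transcript start, neither mark was left at 12 of 14 blood, 12 of 14 liver, muscle and pancreas, 5 of 10 basal, 8 of 16 fibroblast and 6 of 12 neuroendocrine and neuronal genes. Of all genes 56.3% had both marks by this definition, 11.2% H3K4me3 only and 3.28% H3K27ac only. VIM, FN1, DST, NCAM1 and RBFOX3 had both marks when any transcript start was allowed.

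Genes for enzymes of the marks mostly had both marks. Of 16 genes of H3K4 methyltransferase complexes and H3K4 demethylases 15 had both marks (93.8%, against 49.0% of all genes), and the exception, the demethylase KDM5B, had 6400 bp of H3K4me3 in both replicates and H3K27ac of 6250 and 2950 bp, with no region shared by both H3K27ac libraries within 1 kb of the start. Of 13 genes for acetyltransferases, deacetylases and acetyl-lysine readers 10 had both (76.9%). EP300, the gene of p300, had 4600 and 5000 bp of H3K4me3 and 3800 and 3450 bp of H3K27ac. Its paralog CREBBP had 3250 and 4100 bp of H3K4me3 but 0 and 550 bp of H3K27ac. KAT2B, another acetyltransferase, also had H3K4me3 only.

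Gene starts with H3K4me3 were rich in CpG whether or not H3K27ac was present. Within 500 bp on either side of the start the median ratio of observed to expected CpG was 0.774 at starts with both marks and 0.765 at those with H3K4me3 only. It was 0.260 at starts with H3K27ac only and 0.292 at those with neither. Of starts with a ratio of 0.8 or more, 72.1% had both marks and 17.5% H3K4me3 only, and 0.294% had H3K27ac only. Of starts with a ratio under 0.2, 8.12% had both marks, 1.65% H3K4me3 only and 6.75% H3K27ac only. KLK3, with a ratio of 0.147, belonged to the few CpG-poor starts that carried both marks.

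The same split ran through the regions. In the 300 bases at the centre of each region, the observed to expected CpG ratio exceeded 0.6 in 48.4% of H3K4me3 regions without H3K27ac, in 32.8% of those with it, and in 0.936% of regions with H3K27ac alone. Windows 10 kb away exceeded it in 3.79% to 5.18% of cases in all 4 classes. Regions with H3K27ac alone were thus below their own surroundings. Far from gene starts the order was kept, with 35.0% for H3K4me3 without H3K27ac, 12.1% for H3K4me3 with it and 0.935% for H3K27ac alone. Median GC content in these distal classes was 50.3%, 44.3% and 44%, against 41%, 43% and 42.7% at 10 kb. By GC content the regions with H3K27ac alone were thus not below their surroundings.

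Short motifs were counted in the same 300 bases on both strands. GGGCGG, bound by SP and KLF factors, was near gene starts in 60.8% of H3K4me3 regions without H3K27ac, in 54.4% of those with it and in 9.29% of regions with H3K27ac alone. In distal regions the same shares were 21.9%, 12.2% and 4.40%, against 5.97% to 6.31% at 10 kb. The forkhead letters TGTTTAC were in 10.1% of distal regions with H3K27ac alone, 11.5% of distal H3K4me3 regions with H3K27ac and 9.23% of distal H3K4me3 regions without it, and at 10 kb in 4.26%, 4.45% and 4.60%. Near gene starts they were in 8.28% of regions with H3K27ac alone, 2.30% of H3K4me3 regions with H3K27ac and 2.17% of those without. TGANTCA, the AP-1 site, was in 13.6% of distal regions with H3K27ac alone against 9.09% at 10 kb, and in 6.84% of distal H3K4me3 regions without H3K27ac against 8.65%. GGGCGG is made of G and C and holds a CpG, so its share moves with base composition.

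Libraries that did not define the classes were made from cells treated with CTCF siRNA. Both CTCF siRNA libraries of the own mark called 89.1% of H3K4me3 regions with H3K27ac and 81.4% of those without. For H3K27ac these shares were 96.8% with H3K4me3 and 88.1% without. The other mark appeared in both CTCF siRNA libraries at 97.2% and 89.9% of shared regions, and at 20.9% of H3K4me3 regions and 14.9% of H3K27ac regions that had lacked it. In the control libraries themselves 29.6% of H3K4me3 regions classed without H3K27ac overlapped a region that 1 H3K27ac library had called, and 29.9% of H3K27ac regions classed without H3K4me3 did so for H3K4me3. Of the gene starts with H3K4me3 only, 1864 of 2455 (75.9%) stayed in that class after CTCF siRNA and 514 had both marks.

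CTCF, which binds insulators and loop anchors, was called in both control CTCF libraries at 17.6% of H3K4me3 regions without H3K27ac (Wilson 95% interval 16.7 to 18.4) and at 12.3% of those with it (11.9 to 12.8). It was at 13.7% of H3K27ac regions with H3K4me3 and at 6.74% of those without (6.47 to 7.02). H3K4me3 regions without H3K27ac were the narrower ones, and per Mb of region they held 111 regions with CTCF against 50.4. For H3K27ac the densities were 41.7 with H3K4me3 and 34.0 without.

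All 3 classes covered more of the chromosomes that are rich in genes. X was the lowest in each at 5.75 protein-coding genes per Mb, although chromosomes 13 (3.37) and 18 (3.56) were poorer in genes. Over non-N bases, both marks covered 0.624% of the X chromosome, the lowest value, and 4.75% of chromosome 19, the highest. H3K4me3 alone ranged from 0.393% on X to 1.87% on 19. H3K27ac alone ranged from 1.56% on X to 5.07% on chromosome 21, where gene density was 6.52 protein-coding genes per Mb against 26.5 on chromosome 19. Across the 23 chromosomes Pearson's r with gene density was 0.922 for both marks, 0.956 for H3K4me3 alone and 0.643 for H3K27ac alone, and Spearman's rho was 0.901, 0.844 and 0.801. Without chromosome 19 Pearson's r was 0.887, 0.874 and 0.760. Chromosomes share libraries and are no replicates, so these values are descriptions.

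The balance of the marks also varied by chromosome. H3K27ac covered 1.40 times the bases of H3K4me3 on chromosome 19 and 2.36 times on chromosome 21, around a median of 2.04. Within replicate 1 the ratio was 1.51 on 19 and 2.92 on 21, and within replicate 2 it was 1.25 and 1.70. Chromosome 19 had the lowest ratio and chromosome 21 the highest in both replicates. Chromosome 18 was the one where the marks met least. There 61.4% of H3K4me3 regions overlapped H3K27ac and 28.6% of H3K27ac regions overlapped H3K4me3, against 81.0% on chromosome 21 and 59.7% on chromosome 19 at the upper ends.

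**Figure D5:**
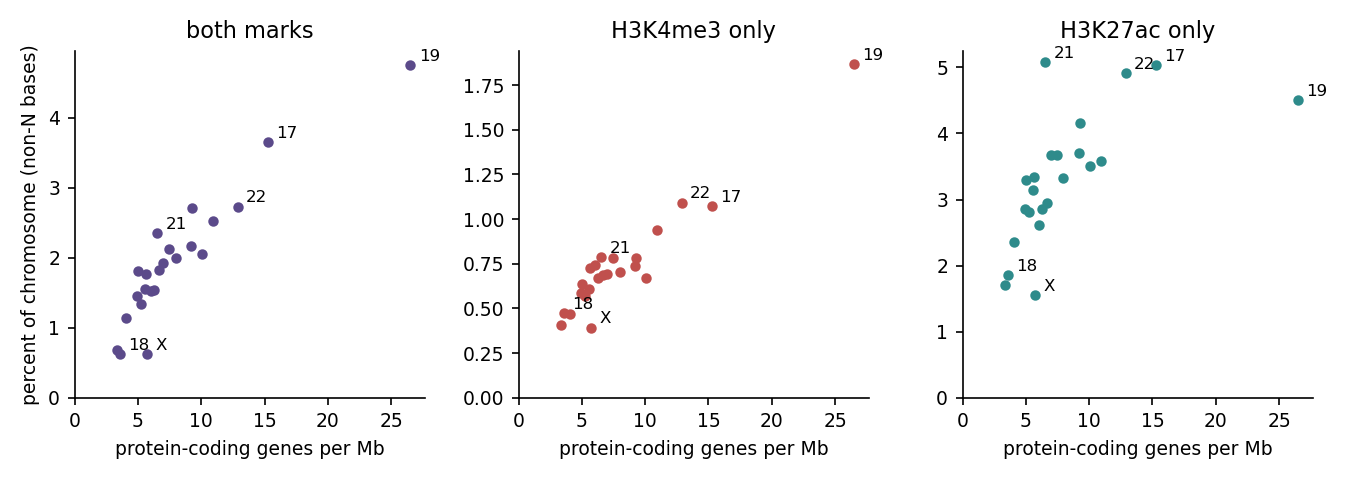
Percent of the non-N bases of each chromosome in each class against protein-coding genes per Mb, 1 point per chromosome, with some chromosomes labelled. Chromosome 19 is highest for both marks (4.75%) and for H3K4me3 only (1.87%), whereas chromosome 21 is highest for H3K27ac only (5.07%) at a gene density of 6.52 per Mb.

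The widest shared regions were broad H3K27ac domains with H3K4me3 in patches. The widest lay over GRB10, an adaptor of the insulin receptor, at chr7:50651301-50860900. H3K27ac covered 209500 and 203350 bp there, and H3K4me3 19350 and 25800 bp in 10 separate regions. ST3GAL1, PPP3CA, KDM6A and PPFIA2 followed, with 99100 to 130750 bp of H3K27ac in replicate 1 and 3200 to 14300 bp of H3K4me3. KDM6A, an H3K27 demethylase, also held the fourth of the widest regions with H3K27ac alone, at chrX:44858151-44898900.

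The widest H3K27ac region without H3K4me3, at chr21:17732301-17782150, lay 479917 bp from USP25, the nearest protein-coding gene. H3K27ac covered 49850 and 45700 bp, and H3K4me3 0 and 2450 bp. The next was in PRKD1, a protein kinase gene, with 41850 and 35900 bp of H3K27ac against 0 and 7250 bp. A further one lay on chromosome 21 at chr21:17815951-17856650, and the fifth in ABHD2 had 26050 and 24650 bp. In all 5 regions only H3K4me3 replicate 2 had called any H3K4me3. The largest width ratio in a shared pair was in PRUNE2, where a 70400 bp H3K27ac region held an H3K4me3 region of 1400 bp, a ratio of 50.3. NAALADL2 followed with 36.8 and a region on chromosome 8 whose nearest gene was MYC, 140703 bp away, with 22.5.

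The widest H3K4me3 regions without H3K27ac were short beside these. The widest, over ZNF717, a zinc-finger gene, had 8800 and 8850 bp of H3K4me3, with 600 and 2100 bp of H3K27ac in stretches that the H3K27ac libraries did not share. A region over EPHA7, an ephrin receptor gene, had 5200 and 5250 bp of H3K4me3 against 2350 and 0 bp of H3K27ac. One over KIF13A, a kinesin gene, had 4650 and 4700 bp against 2700 and 0 bp. In EPHA7 and KIF13A only H3K27ac replicate 1 had called H3K27ac, so it did not count as present.

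The others among the 5 widest lay near large assembly gaps, 709153 bp away on chromosome 2 and 1097801 bp away on chromosome 16. So did the 3 pairs with the smallest ratio of H3K27ac to H3K4me3 width. The ratios were 0.0844 at chr2:89836101-89847350, 0.130 at chr7:61739101-61750650 and 0.139 at chr7:61779451-61793450, each under 1 Mb from an assembly gap of at least 1 Mb. Of the 20 widest H3K4me3 regions 12 lay within 1 Mb of such a gap, and of the 20 widest H3K27ac regions none did. The stretch of chromosome 7 printed above is from this group. A density of over 20 GGAAT units per kb was reached by 0.0565% of evenly spaced 2000-bp windows of the genome. It was reached by 71 of 23766 H3K4me3 regions with H3K27ac (0.299%) and by 42 of 7384 without (0.569%). Among the 57 H3K4me3 regions over 10 kb, 16 reached it. None of the 31527 regions with H3K27ac alone did. Of the 23377 H3K27ac regions with H3K4me3, 110 did (0.471%), at a median width of 1950 bp. The unit was chosen after these sequences were seen, and the part of the repeat in these regions was not tested. Without all regions within 1 Mb of the gaps, both marks covered 1.63% of the genome, H3K4me3 only 0.613% and H3K27ac only 2.91%.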

How the data were processed

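H3K4me3 and H3K27ac ChIP-seq of 4 control siRNA LNCaP libraries was used, with the 4 CTCF siRNA libraries of the marks and the 2 control CTCF libraries as other readouts. The authors used Bowtie for alignment to hg19, dropped duplicate and multi-mapping reads, and called histone regions per library with PeakRanger at default parameters and CTCF peaks with MACS2. The deposited histone lists give positions and a score of unstated meaning, used here only to rank regions. The deposited CTCF lists by the authors give a fold enrichment, a ratio to local background, and only peak positions were used.

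Regions overlapping by at least 1 bp were merged with Python 3.11.15, numpy 2.4.6 and scipy 1.17.1 and kept where both libraries of a mark contributed. Coordinates count from 1. Gene starts were those of the gene records of GENCODE release 44 lifted to hg19, near meaning within 1 kb, and sequence came from GRCh37, which has the same coordinates. Lists carry no read counts, so the depth behind a single region is unknown, although the paper states the depth of each library. Wilson intervals cover counting error only. Library values were compared by exact two-sided permutation tests over samples that the labels number as replicates. The paper describes its ChIP experiments as done in biological duplicate, while the labels do not say that the samples are separate cultures. The p-values measure the spread between these samples, part of which may be technical. Region building was tested on simulated data and returned all 7 quantities compared. The members and the gene lists were chosen with earlier results of these data known. Named were genes of the lists, the 5 widest regions per class by the smaller of both libraries' coverage, the 3 pairs at each end of the width ratio, and the chromosomes with the highest and lowest values. The alternatives were other overlaps, merging, ranks, denominators, start definitions, single libraries, a replicate block, and, added later, crossed pairs and removal of regions near assembly gaps. IMR90 libraries and CTCF peaks after CTCF siRNA were not used here, and a few genes of the lists and 1 motif are not reported here.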

Additional observations from a re-analysis of the deposited data

How the results depend on the processing

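In 160 recomputations of 15 results no width ratio crossed 1, although the overall ratio reached it, and no difference between the marks changed sign. Percentages have no direction to turn. Percentages and ratios were held against the SD of the same-numbered library pairings, called the spread here, and differences against their sign. By these yardsticks 126 recomputations stayed and 34 moved, and the cause of the 34 shifts was not tested. The spread was narrow for gene starts with both marks (0.0985 percentage points) and wide for H3K27ac regions with H3K4me3 (11.7). Both marks covered 1.30% of the genome by bases covered in both libraries, 2.13% by regions in either library, 1.13% with the lowest-score 50% of each list and 1.43% with lists shortened to the shortest. H3K27ac overlapped 70.9% of H3K4me3 regions with the lowest-score 50% and 64.1% with shortened lists, where H3K4me3 overlapped 57.8% of H3K27ac regions. The width ratio was 1.39 and H3K4me3 lay inside H3K27ac in 59.6% with regions in either library, against 1 and 36.8% with the lowest-score 50%. Gene starts with both marks made up 47.8% at 500 bp, 50.9% at 2 kb and 56.3% by any transcript start.

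Leaving out each library in turn, both marks covered 1.50% to 1.91% of the genome, H3K4me3 only 0.5995% to 0.815% and H3K27ac only 2.48% to 3.63%. H3K27ac overlapped 69.1% to 81.8% of H3K4me3 regions and H3K4me3 30.0% to 57.4% of H3K27ac regions; the latter share was highest without H3K4me3 replicate 1 and lowest without H3K27ac replicate 2. The width ratio was 1 to 1.5, with 0.724 to 0.905 near gene starts and 1.25 to 2.06 elsewhere, and H3K4me3 lay inside H3K27ac in 39.4% to 63.1% of pairs. The ratio of 1 was without H3K27ac replicate 1 and that of 1.5 without H3K4me3 replicate 2. Gene starts had both marks in 48.98% to 50.7%, H3K4me3 only in 10.5% to 13.6% and H3K27ac only in 2.11% to 3.52%. H3K27ac minus H3K4me3 was 25 to 75 bp in median width, 48.8 to 88.3 Mb in coverage and -17.0 to -10.2 percentage points in regions near a gene start.

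Same-numbered libraries did not deviate together (correlation -0.293 over 3053 bins of 1 Mb). The longer list was replicate 2 for H3K4me3 and replicate 1 for H3K27ac. The correlation therefore cannot tell whether same-numbered libraries shared a culture. The labels do not say so either, and the numbers were not taken as pairs. With the replicate block gene starts with both marks made up 50.6%, and with crossed pairs, added after the data were seen, also 50.6%. The block changed no other result by more than the spread, and its tests could not go below p = 0.5 in exact sign flips over 2 pairs. Removal of regions near assembly gaps, also added after the data were seen, left all 9 results within the spread. The lists give no depth, so regions that are missing cannot be told from regions below the caller's threshold.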
